A study of Mus musculus with 2 samples.

Results

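The 10 genes described here are Fos, Fosb, Jun, Junb, Egr1, Atf3, Ier2, Zfp36, Nfkbia and Dusp1, taken by symbol from a matrix of 22253 genes in single cells of mouse small intestinal organoids. All 10 symbols were found. The choice was by name: a group of immediate early genes and the NF-kB inhibitor Nfkbia, whose levels were followed across cell types, across droplets of different RNA content and across cultures. Organoids are cultures grown from intestinal crypts that contain stem cells and their differentiated descendants.

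The cells came from 5 distal small intestinal organoid cultures, 3 Etv1 mutant and 2 control. All 5 carried the reporter alleles Neurog3-RFP and Gcg-Venus, which mark enteroendocrine progenitors and cells that express the glucagon gene. Sorted cells of each culture were tagged with its own hashtag oligo, pooled and sequenced as 1 RNA library with 1 matching hashtag library over the same 3409 barcodes. The labels call the cultures biological replicates, and they do not state the Etv1 mutation, the age of the animals or the sort gate. Whether the cultures of a genotype came from different animals is not stated either, so p-values measure the spread between these cultures. The labels name no agent. Cultures are numbered here in the order of their hashtags in the labels.

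Immediate early genes are transcribed within minutes of a signal, without new protein synthesis, through factors such as SRF and CREB that are already in the cell. Fos, Fosb, Jun and Junb encode subunits of the dimeric transcription factor AP-1, and Atf3 encodes a stress-induced relative that dimerizes with Jun proteins. Egr1 encodes a zinc finger transcription factor, and Ier2 a small nuclear protein induced together with them. The last 3 genes act as brakes: Zfp36 encodes tristetraprolin, which speeds the decay of AU-rich mRNAs, Nfkbia encodes IkB alpha, which holds NF-kB in the cytoplasm, and Dusp1 encodes a phosphatase that inactivates MAP kinases. These transcripts are also known to be induced when tissue is dissociated into single cells, and dissociated cells without a reference from intact organoids cannot show how much of their level was present before.

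Of 2725 barcodes that passed the cell filter, 1432 carried 1 hashtag and were analysed: 282, 281 and 197 cells of the mutant cultures and 323 and 349 of the control cultures. Their summed counts were between 4193197 and 7254380 per culture, and the median cell held 20842 to 24126 counts, each count standing for 1 tagged RNA molecule (UMI). Levels are given in CPM, a gene's counts scaled to 1000000 counts of the summed cells of a class or other set in 1 culture. Etv1 had 20, 20 and 13 counts in the mutant cultures and 45 and 44 in the control cultures (3.21, 3.06 and 3.1 CPM against 6.2 and 6.28 CPM). All mutant cultures were thus below both control cultures, as was so for 7.8% of all genes tested. Etv1 was not called by edgeR's quasi-likelihood test over all genes (adjusted p = 1). Cells were clustered without the 10 genes and without the related lists used below. The 5 named classes were stem-like (382 cells), cycling-like (246), enterocyte-like (203), goblet/Paneth-like (93) and enteroendocrine-like (69). A cluster of 185 cells led by Ly6a and Anxa1, a cluster of 178 cells with a median of 19.6% mitochondrial counts and a cluster of 76 cells with a median of 1327 UMIs stayed unnamed. All 5 mesenchymal markers were at 0 in every culture, endothelial markers had at most 2 counts, and the summed immune markers were at 0.946 to 1.92 CPM.

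The start regions of the genes are shown as a description. Several of the 10 genes moved together across cell classes and cell depth. Nfkbia and Dusp1 were not called in the enteroendocrine-like or goblet/Paneth-like cells, nor by depth over all cells. Whether the start regions bear on this was not tested. Windows from RefSeq (GRCm38.p6) were searched for 8 of the 10 genes: Ier2 had no matched entry, and the window of Egr1 is not reported here. The 250 bases before the RefSeq start are printed 5′ to 3′ on the gene's strand, with the motifs searched for in capitals. The windows are chr12:85473640-85473889 on the plus strand for Fos, chr4:95052223-95052472 on the minus strand for Jun, chr1:191183334-191183583 on the minus strand for Atf3, chr7:28379229-28379478 on the minus strand for Zfp36, chr12:55492648-55492897 on the minus strand for Nfkbia and chr17:26508473-26508722 on the minus strand for Dusp1.
Fos: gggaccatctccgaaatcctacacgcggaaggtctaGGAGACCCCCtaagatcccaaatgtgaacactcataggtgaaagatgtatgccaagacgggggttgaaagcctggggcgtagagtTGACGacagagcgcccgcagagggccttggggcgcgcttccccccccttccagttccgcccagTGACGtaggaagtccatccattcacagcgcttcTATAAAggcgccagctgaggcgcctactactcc
Jun: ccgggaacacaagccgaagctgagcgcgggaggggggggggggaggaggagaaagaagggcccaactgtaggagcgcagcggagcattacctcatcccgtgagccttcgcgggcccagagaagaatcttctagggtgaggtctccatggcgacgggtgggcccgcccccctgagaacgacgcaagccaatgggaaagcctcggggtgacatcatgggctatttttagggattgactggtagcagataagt
Atf3: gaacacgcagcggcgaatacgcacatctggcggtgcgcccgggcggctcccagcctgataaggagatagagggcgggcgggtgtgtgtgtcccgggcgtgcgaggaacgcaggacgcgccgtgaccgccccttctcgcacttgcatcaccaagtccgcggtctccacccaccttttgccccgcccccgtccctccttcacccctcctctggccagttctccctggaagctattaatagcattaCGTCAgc
Zfp36: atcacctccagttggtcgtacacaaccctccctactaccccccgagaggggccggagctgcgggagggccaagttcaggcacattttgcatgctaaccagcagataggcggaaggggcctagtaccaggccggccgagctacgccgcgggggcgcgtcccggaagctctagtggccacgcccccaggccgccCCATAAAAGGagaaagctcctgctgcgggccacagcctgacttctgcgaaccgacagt
Nfkbia: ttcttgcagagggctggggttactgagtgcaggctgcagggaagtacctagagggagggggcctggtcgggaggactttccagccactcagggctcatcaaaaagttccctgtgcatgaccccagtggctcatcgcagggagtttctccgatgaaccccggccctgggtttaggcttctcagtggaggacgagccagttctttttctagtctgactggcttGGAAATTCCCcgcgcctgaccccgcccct
Dusp1: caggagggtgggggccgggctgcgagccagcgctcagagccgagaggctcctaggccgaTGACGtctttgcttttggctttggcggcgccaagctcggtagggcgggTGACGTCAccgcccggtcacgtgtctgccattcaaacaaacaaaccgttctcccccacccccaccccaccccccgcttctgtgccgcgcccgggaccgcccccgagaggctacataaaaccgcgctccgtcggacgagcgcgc
Positions count back from the start, with -1 as the last base before it, and both strands were searched. Fos held TGACG, the core of the CREB site, at -129 to -125 and at -66 to -62, and the TATA box TATAAA at -33 to -28. Atf3 held TGACG on the reverse strand at -7 to -3, next to its start. In Dusp1 the full CREB site TGACGTCA lay at -143 to -136, which overlaps 2 of its 3 TGACG matches. Zfp36 held a CArG box, the SRF site, at -58 to -49, and Nfkbia a site of the NF-kB consensus at -29 to -20, written as on the gene's strand. Fosb and Junb, not printed, also held TGACG, Fosb held a match to the NF-kB consensus, and so did Fos. In the Jun window none of the 7 motifs was found. Among 32851 windows of the same length, 17.8% held TGACG, 1.55% TGACGTCA, 1.47% the CArG box, 7.25% the NF-kB consensus and 12.4% TATAAA. The AP-1 site TGACTCA (4.46% of all windows) and the EGR site GCGTGGGCG (0.536%) were in none of the 8. A match is a run of letters, not a site shown to be used, and the RefSeq start can differ from that used in these cells: for Atf3, Zfp36 and Dusp1 it lies inside a longer gene model in the GENCODE mm10 annotation.

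Across cell classes, Egr1, Jun, Junb, Atf3, Ier2 and Zfp36 were higher in both secretory classes, the enteroendocrine-like and the goblet/Paneth-like cells, than in the mean of the other named classes. Cycling-like cells were lowest or next to lowest for 8 of the 10 genes, and enterocyte-like cells split it: Nfkbia, Dusp1, Junb and Zfp36 were higher there, and Jun, Egr1, Fosb, Ier2 and Fos lower. Each class was compared with the mean of the 4 other named classes on sums per culture, with the culture as a block, over 8236 genes. The test was edgeR's quasi-likelihood test, with p-values adjusted by Benjamini-Hochberg over all genes and a threshold of 0.05.

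Egr1 separated both secretory classes from the other named classes in every culture. Its level in the enteroendocrine-like cells was 570.4, 667.9 and 630.7 CPM in the mutant cultures and 550.5 and 470.1 CPM in the control cultures. In the goblet/Paneth-like cells it was 358.1, 477 and 320.3 CPM in the mutant cultures and 372.2 and 381.8 CPM in the control cultures. In the enterocyte-like cells it was 77.99, 149.2 and 66.93 CPM in the mutant cultures and 107.6 and 70.16 CPM in the control cultures. Every culture of both secretory classes was therefore above every culture of the other named classes and the Anxa1 cluster, since the stem-like cells reached at most 215.3 CPM. The order of means was enteroendocrine-like (577.9 ± 76.4 CPM, SD, n = 5 cultures), goblet/Paneth-like (381.9 ± 58.1), stem-like (180.1 ± 22.9), Anxa1 cluster (111.8 ± 37.8), cycling-like (105.8 ± 26.1) and enterocyte-like (94.38 ± 34.6). Only the step between goblet/Paneth-like and stem-like cells separated neighbours without overlap. The log2 fold change against the other classes was 1.41 (SE 0.14, adjusted p = 5.51e-10) in enteroendocrine-like and 1.21 (SE 0.12, adjusted p = 2.31e-09) in goblet/Paneth-like cells.

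Among the AP-1 genes, Jun followed the same order, at 1081 ± 288 CPM in the enteroendocrine-like, 717.3 ± 143 in the goblet/Paneth-like, 599.3 ± 72 in the stem-like and 242.4 ± 22.7 CPM in the enterocyte-like cells (SD, n = 5). Its neighbours in the order overlapped except for stem-like cells and the Anxa1 cluster, where the lowest stem-like culture (518.3 CPM) lay above the highest of the cluster (497.3 CPM). Junb was at 405.2 ± 153 CPM in the enteroendocrine-like cells, 281.1 ± 36.9 in the goblet/Paneth-like, 197.8 ± 20.5 in the enterocyte-like, 127.4 ± 18.3 in the stem-like and 81.5 ± 13.2 CPM in the cycling-like cells. In this gene goblet/Paneth-like and enterocyte-like cells did not overlap, nor did stem-like and cycling-like cells. Atf3 spanned the widest ratio of the group, 7.61-fold between the highest and the lowest class mean, at 259.3 ± 63.1 CPM in the enteroendocrine-like and 34.06 ± 19.1 CPM in the cycling-like cells, with every pair of neighbours overlapping.

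Fos, the partner of Jun in AP-1, was highest in the goblet/Paneth-like cells (623.1 ± 84.8 CPM) and lowest in the enterocyte-like cells (286.6 ± 99.4 CPM), and all neighbours in its order overlapped. In the enteroendocrine-like cells it ranged from 269.1 to 941.2 CPM, wider than the difference between classes, and was not called (log2 fold change 0.06). Fosb was sparse, with 9 counts in the enteroendocrine-like and 56 in the goblet/Paneth-like cells. In the goblet/Paneth-like cells its level was 21.27, 14.91 and 4.817 CPM in the mutant cultures and 36.54 and 55.36 CPM in the control cultures. The mutant cultures had 6, 3 and 2 of these counts, against 16 and 29 in the control cultures. Its log2 fold change of 1.86 (SE 0.35, adjusted p = 0.000158) was 1.27 without control culture 2.

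The 3 braking genes did not share 1 pattern. Zfp36 followed Junb, at 193.6 ± 83.8 CPM in the enteroendocrine-like, 118.1 ± 10.8 in the goblet/Paneth-like, 103.5 ± 21.2 in the enterocyte-like and 48.76 ± 11.5 CPM in the cycling-like cells, with no overlap between the first 2 classes. Nfkbia was highest in the enterocyte-like cells, at 74.33, 124.7 and 191 CPM in the mutant cultures and 126.8 and 100.8 CPM in the control cultures. It was lowest in the stem-like cells, at 65.25, 56.36 and 61.77 CPM in the mutant cultures and 59.67 and 52.07 CPM in the control cultures. These 2 classes did not overlap, although every pair of neighbours in between did. Dusp1 was highest in the enterocyte-like cells (46.93 ± 16 CPM) and lowest in the Anxa1 cluster (18.23 ± 6.2 CPM), and all neighbours overlapped. Ier2 was at 712.1 ± 279 CPM in the enteroendocrine-like and at 280.6 ± 62.4 CPM in the enterocyte-like cells, again with all neighbours overlapping.

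**Figure D1:**
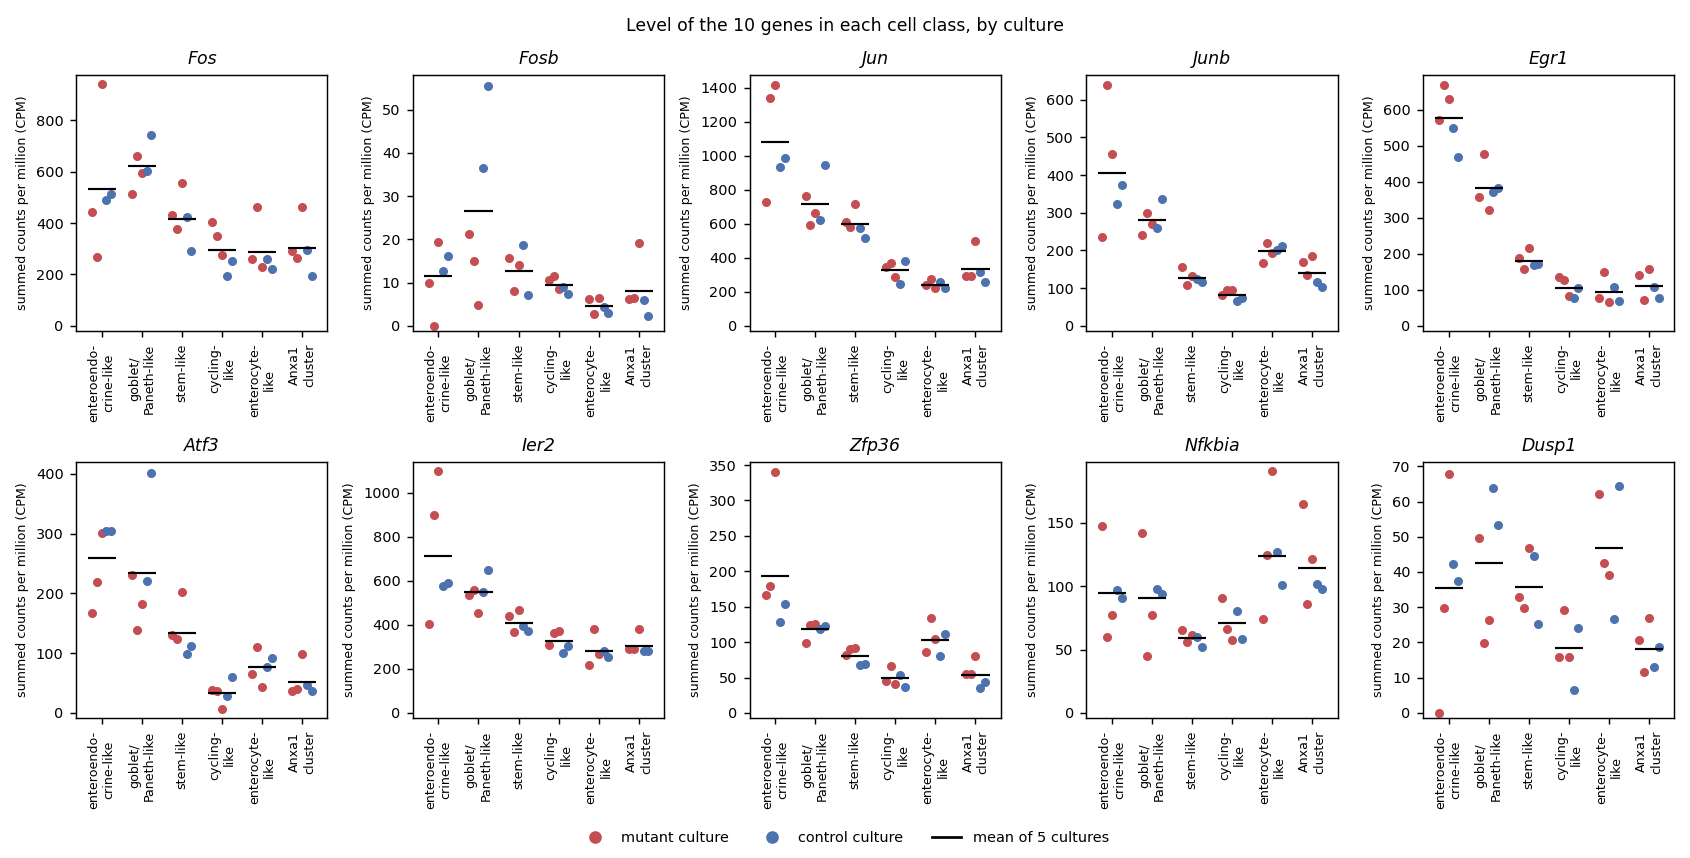
Level of each of the 10 genes (CPM, linear axis from 0, own scale per gene) by cell class, 1 point per culture, mutant cultures left of control cultures within each class, with the mean over the 5 cultures as a line. Egr1 lies at 470.1 CPM or more in all 5 enteroendocrine-like samples and at 149.2 CPM or less in all 5 enterocyte-like samples, whereas Nfkbia is highest in the enterocyte-like cells.

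In the enteroendocrine-like cells 6 of the 10 genes passed the test as higher and 0 as lower, where 17.5% of all genes tested were higher and 19.7% lower. Beside Egr1 these were Atf3 (log2 fold change 1.04), Junb (0.94), Jun (0.90), Zfp36 (0.74) and Ier2 (0.46). Fos, Fosb, Nfkbia and Dusp1 were not called. Ier2 lost its call without mutant culture 3 (0.24, adjusted p = 0.175, edgeR). This class is small, with 7, 10 and 11 mutant and 22 and 19 control cells, and 59.4% of its cells held under 10000 UMIs, a depth at which several of the 10 genes were higher over all cells. The class could not be refitted within 10000 to 40000 UMIs, so depth and class cannot be told apart in it.

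In the goblet/Paneth-like cells 8 of the 10 genes were higher and 0 lower, against 12.1% and 5.04% of all genes. The called genes were Fosb, Atf3 (log2 fold change 1.37), Egr1, Fos (0.90), Junb (0.88), Jun (0.73), Ier2 (0.60) and Zfp36 (0.51). Zfp36 lost its call without control culture 1 (0.33, adjusted p = 0.169, edgeR) and without control culture 2 (0.46, adjusted p = 0.0621), and with MULTIseqDemux calls (0.26, adjusted p = 0.3). The count was again 8 among cells of 10000 to 40000 UMIs, where 2083 genes were called in all. The fit in that window held no enteroendocrine-like cells, so each class was compared there with fewer classes. Its values differ from the main fit in depth and in the classes compared.

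In the cycling-like cells 0 of the 10 genes were higher and 8 lower, against 25.8% higher and 22.8% lower among all genes. Atf3 fell most (log2 fold change -2.15, SE 0.21, adjusted p = 3.93e-10, edgeR), followed by Junb (-1.49), Zfp36 (-1.22), Egr1 (-1.21), Dusp1 (-1.10), Jun (-0.81), Fos (-0.58) and Ier2 (-0.49). Fosb (-0.27) and Nfkbia (-0.30) were below zero and were not called. Cycling-like cells were also the deepest class, with a median of 33859 UMIs. Within 10000 to 40000 UMIs, in the fit without enteroendocrine-like cells, 9 of the genes were called in this class, among 3452 genes called in all.

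In the enterocyte-like cells 4 genes were higher and 5 lower, against 29.4% and 34% of all genes, so that 9 of the 10 differed in a class where most genes differed too. Nfkbia (log2 fold change 0.91, SE 0.14), Dusp1 (0.72), Junb (0.36) and Zfp36 (0.35) were higher. Fosb (-1.48, SE 0.41), Egr1 (-1.14), Jun (-1.09), Ier2 (-0.50) and Fos (-0.39) were lower, and Atf3 missed the threshold (-0.44, adjusted p = 0.0553, edgeR). The call of Fos was lost when mutant culture 1 (-0.35), mutant culture 3 (-0.23), control culture 1 (-0.28) or control culture 2 (-0.32) was left out, and with DESeq2 (-0.36), RLE size factors (-0.36) or MULTIseqDemux calls (-0.31). Dusp1 lost its call without mutant culture 1 (0.51) and without control culture 2 (0.62), and Zfp36 without control culture 2 (0.28).

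In the stem-like cells 1 gene was higher and 3 lower, against 21.8% and 16.8% of all genes. Junb (log2 fold change -0.69), Nfkbia (-0.67) and Zfp36 (-0.38) were lower. Jun was higher (0.27, adjusted p = 0.0363, edgeR), and that call was lost when mutant culture 1 (0.25), mutant culture 2 (0.29), mutant culture 3 (0.23) or control culture 1 (0.22) was left out. It was also lost with DESeq2 (0.24), RLE size factors (0.24), MULTIseqDemux calls (0.11), the 10 genes kept in the clustering (0.20) and a Leiden resolution of 0.5 (0.11) or 1.2 (0.16). Zfp36 lost its call among cells of 10000 to 40000 UMIs (-0.23), in the fit without enteroendocrine-like cells.

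**Figure D2:**
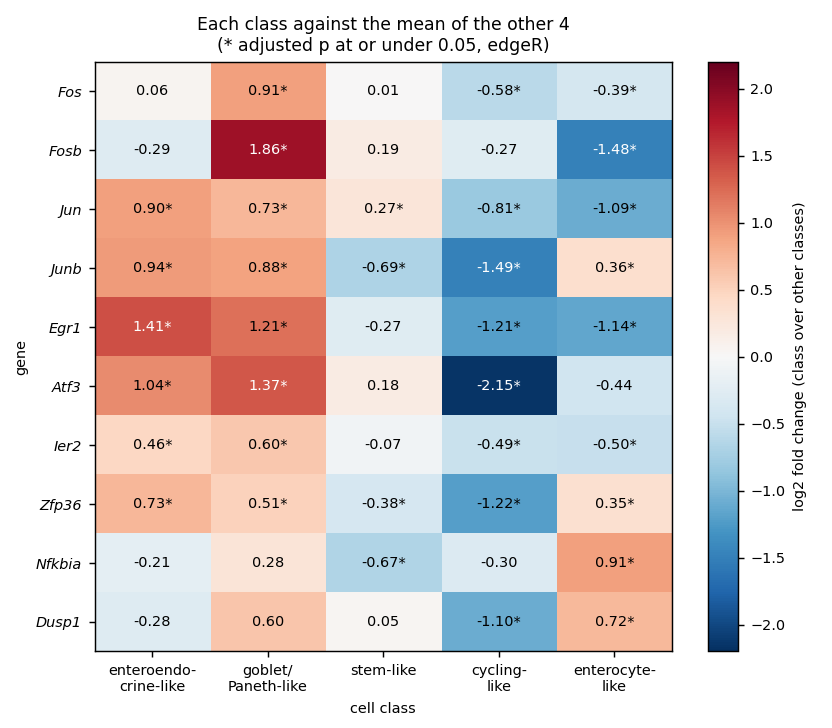
Log2 fold change of each of the 10 genes in each named class against the mean of the other 4 (edgeR, 5 cultures), as a coloured grid with the value in each field and an asterisk for calls at an adjusted p of 0.05 or less. Goblet/Paneth-like cells have 8 asterisks above zero, cycling-like cells 8 below zero, and enterocyte-like cells 4 above and 5 below.

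Other immediate early genes, from a list of 27 of which 19 could be tested, were counted in the same classes, and their counts were not compared with those of the 10 by a test. In the cycling-like cells 13 were lower and 1 higher (22.8% and 25.8% of all genes), among them Rhob (log2 fold change -1.93), Klf4 (-1.89) and Btg2 (-1.85), while Myc was higher (0.80). In the goblet/Paneth-like cells 9 were higher and 0 lower (12.1% and 5.04% of all genes), with Klf4 at 2.16 and Btg2 at 1.47. In the enteroendocrine-like cells 8 were higher and 4 lower (17.5% and 19.7%), with Klf2 at 2.76, Rhob at 2.05 and Btg2 at 1.88 against Ccn1 at -1.92 and Phlda1 at -1.23. The stem-like cells had Ccn1 (1.96) and Myc (1.29) among 4 higher and 7 lower genes (21.8% and 16.8%). In the enterocyte-like cells 6 were higher and 8 lower (29.4% and 34%).

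Of the genes that act with Dusp1 as feedback on ERK, 9 could be tested. Among them 4 were higher and 0 lower in the enteroendocrine-like cells (17.5% and 19.7% of all genes), with Dusp4 at 2.34, Dusp5 at 2.04 and Dusp6 at 1.89 on the log2 scale, and 0 were higher and 5 lower in the cycling-like cells (25.8% and 22.8%), with Dusp5 at -2.53. Of 12 tested genes of the NF-kB pathway, which Nfkbia inhibits, 6 were higher and 2 lower in the enterocyte-like cells, against 29.4% and 34% of all genes. Tnip1 (0.88), Relb (0.71) and Nfkbib (0.65) were among those higher and Birc2 (-0.98) and Nfkb1 (-0.64) were lower. The relatives of Zfp36, Zfp36l1 (0.45) and Zfp36l2 (0.73), were both higher in the stem-like cells, as were 21.8% of all genes, and Zfp36 itself was lower there.

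Over 30 sums (5 cultures in 6 classes, the Anxa1 cluster included), the gene whose level was most like the mean of the 10 genes was Btg2, an antiproliferative immediate early gene, with Pearson's r = 0.91 among 7600 genes. Tmem263 (0.86), Thbs1 (0.85), Nkd1 (0.85) and Wdr26 (0.85) came next. Over 1354 cells thinned to 2000 UMIs, Btg2 was again first (r = 0.35 among 2465 genes), followed by Klf6 (0.29) and Ccn1 (0.27). Within the group, Jun and Egr1 had the closest levels over the 30 sums (r = 0.93), then Jun and Ier2 (0.92) and Egr1 and Ier2 (0.90). Nfkbia had r between -0.26 and 0.19 with the other 9, and Dusp1 between -0.14 and 0.33. Points over sums share cultures and points over cells share 1 library, so these values are descriptions.

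Cell by cell, the thinned counts of pairs of the genes had a median r of 0.36 in the enteroendocrine-like cells (61 cells), 0.19 in the goblet/Paneth-like (93), 0.17 in the stem-like (380), 0.14 in the enterocyte-like (201) and 0.11 in the cycling-like cells (246). Only genes found in at least 10 thinned cells of a class entered, so these medians are not over the same pairs. There were 21 pairs in the enteroendocrine-like cells, without Fosb, Nfkbia and Dusp1, and 28 in the goblet/Paneth-like cells. The stem-like, enterocyte-like and cycling-like cells had 36 each. The counts of Atf3 sat in few cells. In the stem-like cells the 38 cells richest in Atf3 held 66.1% of its counts, whereas the 38 richest in Ier2 held 26.1% of the counts of Ier2.

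Across droplet depth, cells with few UMIs had higher shares of most of the 10 genes than cells with many. Cells under 10000 UMIs (340 cells) were compared with cells of at least 20000 UMIs (810 cells) in each culture. Jun averaged 837.3 ± 76.2 CPM in the shallow cells and 375.2 ± 39.2 CPM in the deep cells (SD, n = 5 cultures). Egr1 averaged 382.6 ± 58.3 CPM in the shallow cells and 129.7 ± 12.9 CPM in the deep cells. In both genes every culture's shallow value was above every culture's deep value. Nfkbia averaged 112.9 ± 33.3 CPM in the shallow and 88.04 ± 10.7 CPM in the deep cells, and Fos 481 ± 137 CPM in the shallow and 340.3 ± 65.8 CPM in the deep cells. Neither was called.

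By edgeR's quasi-likelihood test over 9348 genes, 7 of the 10 genes were higher and 0 lower in shallow cells, against 25.1% higher and 23.9% lower among all genes. Fosb (log2 fold change 1.4), Egr1 (1.19), Atf3 (1.08) and Jun (0.81) had the largest values, then Zfp36 (0.48), Junb (0.37) and Ier2 (0.35). Fos (0.12), Nfkbia (-0.04) and Dusp1 (-0.06) were not called. Ier2 lost its call without mutant culture 3 (0.23) or control culture 1 (0.29), Zfp36 without mutant culture 3 (0.36), and Junb without control culture 2 (0.32). Among the depth bins, Jun had its mean maximum at 2000 to 5000 UMIs (907.1 ± 223 CPM) and its minimum from 40000 UMIs (311.3 ± 73 CPM). Egr1 had its maximum at 5000 to 10000 UMIs (410.6 ± 103 CPM) and its minimum also from 40000 UMIs (109.2 ± 20.8 CPM). Under 2000 UMIs (78 cells) Jun averaged 575.2 ± 296, Egr1 235.5 ± 141 and Fos only 241.5 ± 159 CPM. In barcodes that failed the cell filter, Jun averaged 249.6 ± 126 CPM under 500 genes (25 counts) and 874.6 ± 195 CPM over 25% mitochondrial counts.

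The makeup of the cells differed with depth. Of the shallow cells 45% were in the mitochondrial cluster, 22.4% in the shallow cluster, 12.1% were enteroendocrine-like and 4.71% stem-like, while 27.4% of the deep cells were stem-like and 28.5% cycling-like. The median mitochondrial share was 14.9% in the shallow and 3.43% in the deep cells. Enteroendocrine markers summed to 566.9 to 7896 CPM per culture in the shallow cells and 5.363 to 227.9 CPM in the deep cells, and all 7 that could be tested were higher in the shallow cells. Their part in the difference of the 10 genes over all cells was not tested by that comparison. With cells of at most 15% mitochondrial counts, 4 of the 10 genes were called, among 2841 genes called in all. With cells under 5000 UMIs as the shallow side, 3 were called, among 2626. Without the unnamed clusters 5 were called, among 2800, and Ier2 (0.26, adjusted p = 0.432) and Zfp36 (0.53, adjusted p = 0.0781, edgeR) were not. Without the filter on low counts 4 were called, with Junb (0.20), Ier2 (0.17) and Zfp36 (0.31) lost.

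Depth was therefore also compared within a class. The cells of a class were ranked by UMIs in each culture and split into 3 equal tiers, and the shallow tier was compared with the deep tier. In the stem-like cells 8 of the 9 genes tested were higher in the shallow tier and 0 lower, over 5290 genes of which 13.2% were higher and 12.8% lower. The shallow tiers had median depths of 11856 to 17203 UMIs and the deep tiers 25894 to 30106 UMIs. Jun was at 753.7, 681.6 and 862.1 CPM in the mutant and 1093 and 832.9 CPM in the control shallow tiers. In the deep tiers it was at 606.2, 440.4 and 519.6 CPM in the mutant and 306.4 and 426.6 CPM in the control cultures. Every shallow value of Jun was thus above every deep value (log2 fold change 0.98, SE 0.12, adjusted p = 4.55e-08, edgeR).

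Egr1 was at 264.1, 162 and 247.7 CPM in the mutant and 261.3 and 325.6 CPM in the control shallow tiers. Its deep tiers held 166.6, 123.8 and 131.2 CPM in the mutant and 101.2 and 124 CPM in the control cultures. Only the shallow value of mutant culture 2 fell within the range of the deep values, and the shallow tier was higher in 5 of 5 cultures (log2 fold change 1.06, SE 0.13, adjusted p = 3.12e-08, edgeR). Atf3 was at 147.9, 120.1 and 322.1 CPM in the mutant and 241.4 and 261.4 CPM in the control shallow tiers. Its deep tiers held 97.48, 90.05 and 125.9 CPM in the mutant and 44.4 and 101.9 CPM in the control cultures, so that only mutant culture 2 had a shallow value inside the deep range (log2 fold change 1.37, SE 0.16, adjusted p = 3.19e-08, edgeR).

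Zfp36 (log2 fold change 0.81) was also higher in the shallow tier of 5 of 5 cultures, and Junb (0.78), Ier2 (0.71) and Dusp1 (1.45) in 4 of 5. Nfkbia was higher in 4 of 5 cultures but not called (0.15, adjusted p = 0.598, edgeR), and Fosb was too low to be tested. Fos was called at 0.60 although it was higher in only 3 of 5 cultures. Its call was lost without control culture 1 (0.31) or control culture 2 (0.37), and that of Dusp1 without control culture 1 (0.62). With DESeq2 neither Fos (0.49, adjusted p = 0.485) nor Dusp1 (1.19, adjusted p = 0.336) was called. Among stem-like cells of at least 10000 UMIs the count was again 8, among 1194 genes called in all.

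Other features of the stem-like cells moved with depth as well. Of the 7 stem markers tested 6 were higher in the shallow tier, where all 8 summed to 4937 to 7123 CPM against 2538 to 4181 CPM in the deep tier. All 8 tested cycling markers were lower, with sums of 230.4 to 598.7 CPM in the shallow and 423.8 to 981.3 CPM in the deep tier. Of 6 Paneth markers tested 4 were higher (286.5 to 1976 CPM against 337.9 to 879.4 CPM). Enteroendocrine markers summed to 7.979 to 59.46 CPM in the shallow and 0 to 5.628 CPM in the deep tier, with Scg3, Scgn, Rfx6 and Fev at 0 in the shallow tier. Mitochondrial shares averaged 4.42% to 5.54% in the shallow and 2.81% to 4.08% in the deep tier. Mesenchymal and endothelial markers were at 0 in both tiers. The part of these differences in the levels of the 10 genes was not tested. Of 13 other immediate early genes tested, 8 were higher in the shallow tier and 0 lower, among them Btg2 (1.55), Klf6 (1.22) and Phlda1 (0.69), and of 7 heat shock genes 3 were lower.

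Among the tiers of the cycling-like cells 0 of 9 tested genes were called by edgeR. Of the 5247 genes tested, 0.591% were higher and 0.324% lower in the shallow tier. An unadjusted p under 0.05 was reached by 1 of the 9, against 12.5% of all genes. That gene was Fos (-0.53), lower in the shallow tier of 5 of 5 cultures, whereas in the stem-like cells it was called higher. In the Anxa1 cluster 0 of 8 tested genes were called by edgeR, over 3544 genes of which 0.226% were higher and 0.254% lower. There 1 of the 8, Egr1 (0.49), had an unadjusted p under 0.05, against 11% of all genes. In the enterocyte-like cells 0 of 9 tested genes were higher and 1 was lower, over 3451 genes of which 2.84% were higher and 0.406% lower. At an unadjusted p under 0.05, 6 of the 9 passed and all 6 were lower, where 401 of the 3451 genes were higher and 202 lower. Without the filter on low counts edgeR called 201 genes in all. The 4 of the 10 among them were Ier2, Fos (-0.94, adjusted p = 0.0084, edgeR), Junb (-0.88, adjusted p = 0.0255) and Dusp1 (-1.35, adjusted p = 0.0274). With the filter, the 1 called gene was Ier2. It was at 139.4, 241.3 and 92.72 CPM in the mutant and 210.5 and 77.16 CPM in the control shallow tiers. Its deep tiers held 225.7, 401.4 and 260.8 CPM in the mutant and 295.9 and 366.2 CPM in the control cultures. The shallow tier was lower in 5 of 5 cultures, and 1 shallow value, that of mutant culture 2, lay above the lowest deep value (log2 fold change -0.88, SE 0.21, adjusted p = 0.028, edgeR). The call was lost without mutant culture 1 (-0.94), mutant culture 3 (-0.81) or control culture 2 (-0.73), among cells of at least 10000 UMIs (-0.49) and with at most 15% mitochondrial counts (-0.50). Of the other 8 tested genes all had a fitted value below zero, Nfkbia at -0.00. In these cells mitochondrial shares averaged 6.73% to 12% in the shallow and 3.05% to 4.38% in the deep tier, and 6 of 12 enterocyte markers were higher in the shallow tier.

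**Figure D3:**
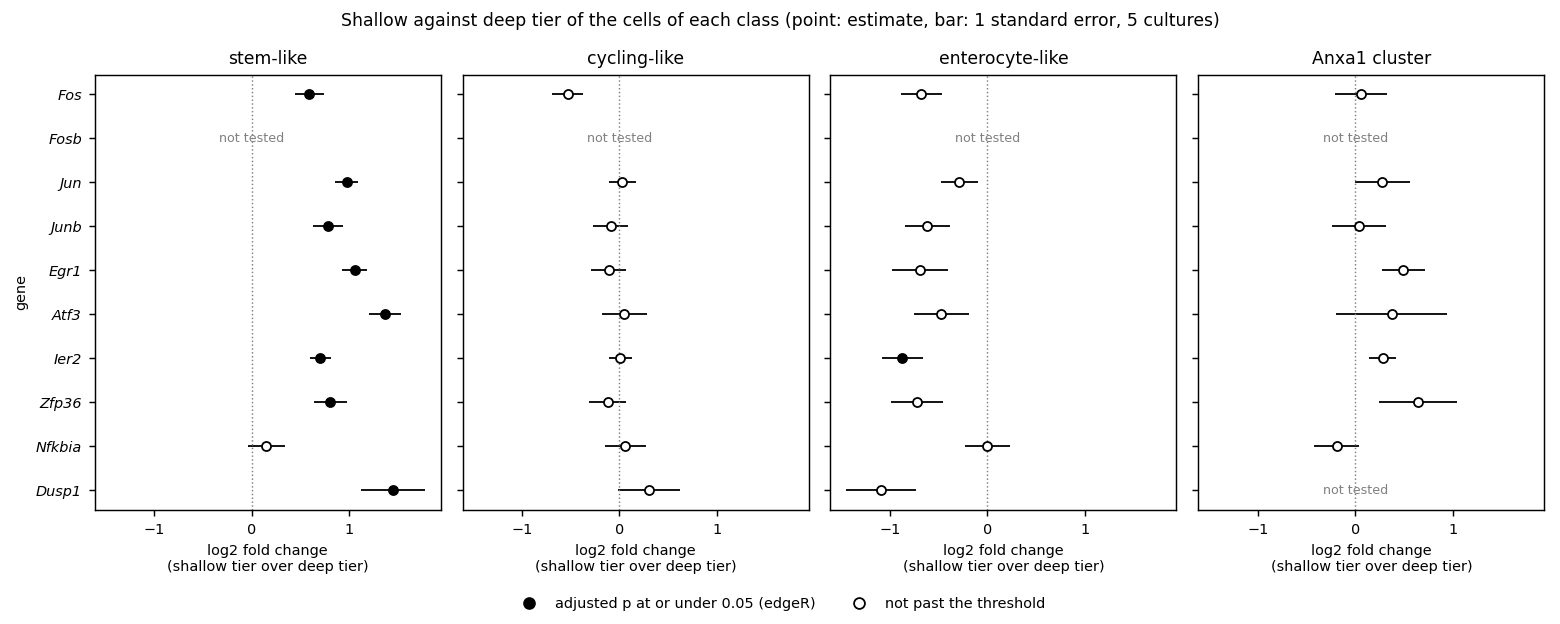
Log2 fold change of each of the 10 genes between the shallow and the deep tier of the cells of each culture (edgeR, shallow minus deep, bars for 1 SE, filled points for adjusted p under 0.05), by class. Stem-like cells have 8 filled points above zero, enterocyte-like cells 1 below zero (Ier2), and cycling-like cells and the Anxa1 cluster none. Tiers of different classes lie at different depths.

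The difference between classes was tested itself, as the depth effect in one class minus that in the stem-like cells. Tiers are ranks within a class and lay at different depths. The shallow tiers had median depths of 23690 to 29812 UMIs in the cycling-like and 5904 to 21602 UMIs in the enterocyte-like cells. Their deep tiers had 38157 to 49253 and 29871 to 38843 UMIs. The stem-like deep tiers, at 25894 to 30106 UMIs, were about as deep as the cycling-like shallow tiers. The terms do not compare the classes at equal depth. For enterocyte-like minus stem-like cells 0 of 9 genes were higher and 8 lower, over 5571 genes of which 0.736% were higher and 0.521% lower. Dusp1 (-2.49, SE 0.61), Atf3 (-1.78, SE 0.35) and Egr1 (-1.77, SE 0.30, adjusted p = 0.000775, edgeR) had the largest differences, and Nfkbia the smallest (-0.17, not called). The count fell to 4 without control culture 1 and to 5 without control culture 2. It fell to 3 among cells of at least 10000 UMIs (41 genes called in all) or of at most 15% mitochondrial counts (46 genes). For cycling-like minus stem-like cells 0 of 9 genes were higher and 7 lower, over 6075 genes of which 5.35% were higher and 1.73% lower. The values ran from -0.67 for Ier2 to -1.29 for Atf3, and Dusp1 (-1.12) and Nfkbia (-0.07) were not called. That count was 3 without control culture 1, 4 without control culture 2 and 2 with DESeq2, which called 206 genes in all.

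The depth difference in stem-like cells was not alike in the cultures of both genotypes for Fos. In the shallow tier Fos was at 334.6, 371.5 and 455.8 CPM in the mutant cultures and 672.2 and 544.9 CPM in the control cultures. In the deep tier it was at 444.9, 347.5 and 489.4 CPM in the mutant cultures and 249.5 and 225.9 CPM in the control cultures. All 3 mutant cultures were below both control cultures in the shallow tier and above both in the deep tier. How many of all genes were apart in these tiers was not counted. Over all cells of the cultures, 9.15% of genes had all mutant cultures higher and 7.8% had all of them lower.

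A term for this difference, the depth effect in mutant minus that in control cultures, was added after these values had been seen. Over 6472 genes it called 7 (0.108%), and 2 of them were in the group, both lower: Fos (log2 difference -1.52, SE 0.19, adjusted p = 8.41e-07, edgeR) and Jun (-0.89, SE 0.19, adjusted p = 0.0238). The other called genes were Ccn1 (-1.45) and Klf6 (-1.34), which are immediate early genes too, Acta1 (-2.60), Tff3 (2.00) and Rps27rt (1.59). Of the 10 genes 9 lay below zero, with a median of -0.91 against 0.01 over all genes, and 9 had an unadjusted p under 0.05, as had 201 higher and 156 lower genes of the 6472. Fosb (-2.96), Dusp1 (-2.06), Atf3 (-1.05), Junb (-0.93), Egr1 (-0.77), Zfp36 (-0.65), Ier2 (-0.53) and Nfkbia (0.66) were not called.

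Fosb, too low to be tested over the tiers of all 5 cultures, had 1, 2 and 3 counts in the mutant and 22 and 12 in the control shallow tiers, against 10, 5 and 8 in the mutant and 15 and 2 in the control deep tiers. In CPM all mutant cultures were below both control cultures in the shallow tier, and the genotypes overlapped in the deep tier. Dusp1 was at 24.65, 50.28 and 49.55 CPM in the mutant and 105.7 and 44.3 CPM in the control shallow tiers. Its deep tiers held 40.77, 23.92 and 30.15 CPM in the mutant and 5.328 and 23.12 CPM in the control cultures. The mutant and control cultures overlapped in the shallow tier, and in the deep tier every mutant culture was above both control cultures. The lowest mutant value there rested on 17 counts and the highest control value on 22. For Fosb and Dusp1, too, the share of all genes apart in a tier was not counted.

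Fos remained called in every alternative run of this term, between -1.28 and -1.69. Jun lost its call with DESeq2 (-0.88, adjusted p = 1), among cells of at least 10000 UMIs (-0.85), without mutant culture 1 (-0.79) and without control culture 1 (-0.45). A tier of stem-like cells held 17 to 22 cells in each mutant culture and 34 in each control culture. Cycling markers summed to 598.7, 276.6 and 363.3 CPM in the mutant and 245.3 and 230.4 CPM in the control shallow tiers, and to 889.8, 790.7 and 423.8 CPM in the mutant and 981.3 and 721.9 CPM in the control deep tiers. None of the 9 cycling markers was called in this term, and their part in the difference of Fos was not tested.

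**Figure D4:**
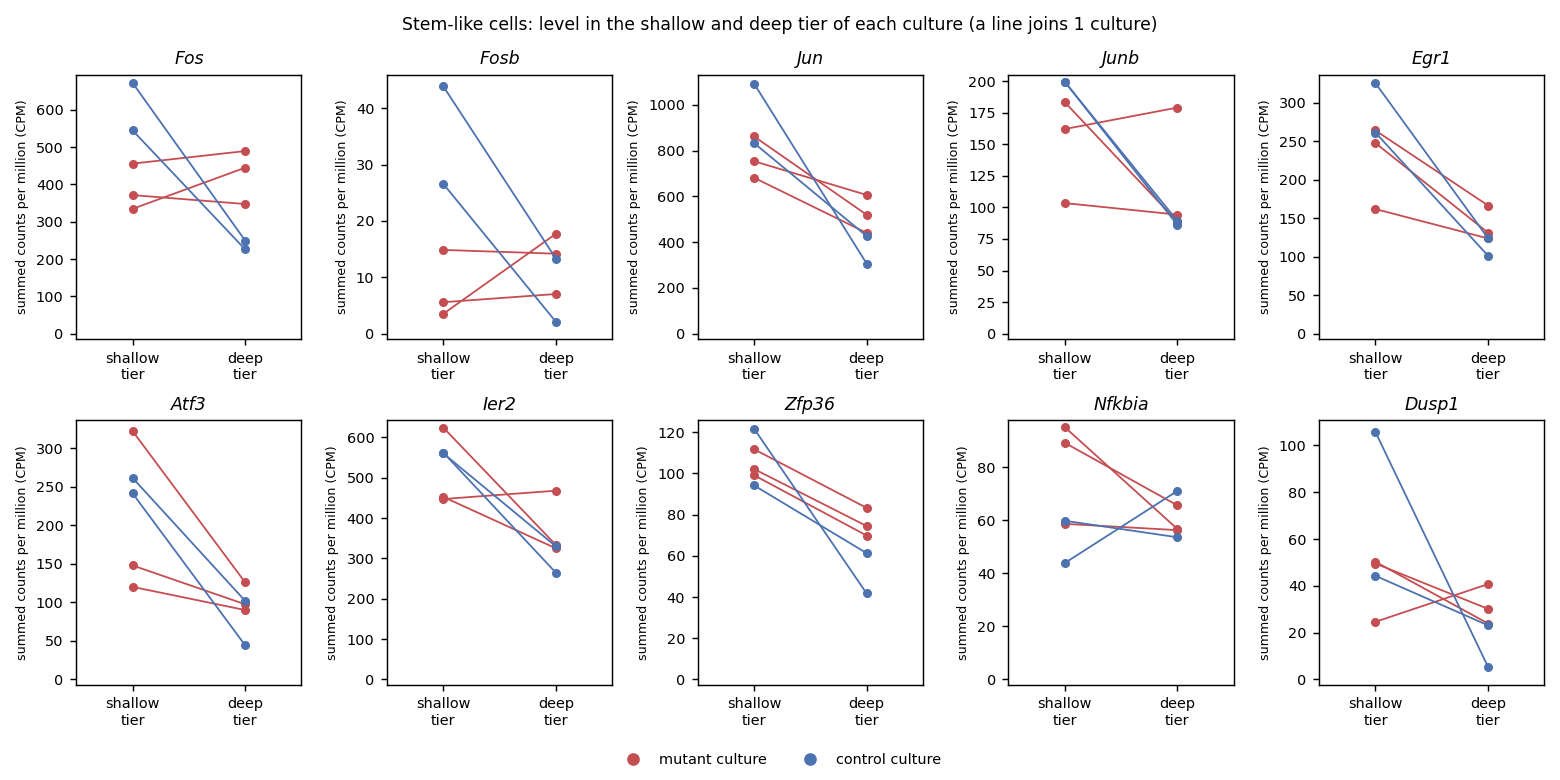
Level (CPM) of the genes in the shallow and the deep tier of the stem-like cells, 1 line per culture, coloured by genotype, the shallow tier on the left. The lines of Fos cross: the mutant cultures lie between 334.6 and 489.4 CPM in both tiers, and the control cultures lie at 672.2 and 544.9 CPM in the shallow and at 249.5 and 225.9 CPM in the deep tier.

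Between genotypes over all cells, 0 of the 10 genes were called, as was the case for all but 1 of 11061 genes (0.00904%). At an unadjusted p under 0.05 there were 133 higher and 204 lower genes, 1 of them in the group, and DESeq2 called 9 genes and 0 of the group. Fos was at 390, 394.7 and 441.7 CPM in the mutant cultures and 340.6 and 296.4 CPM in the control cultures. Egr1 was at 171.8, 163.6 and 176.7 CPM in the mutant cultures and 160.2 and 155.4 CPM in the control cultures. In both genes all mutant cultures were above both control cultures, which was so for 9.15% of all genes (7.8% had all mutant cultures lower), and the other 8 genes overlapped. Fos averaged 408.8 ± 28.6 CPM in mutant and 318.5 ± 31.3 CPM in control cultures (log2 fold change 0.35, SE 0.10, adjusted p = 1, edgeR). Egr1 averaged 170.7 ± 6.62 CPM in mutant and 157.8 ± 3.39 CPM in control cultures (SD, n = 3 and 2).

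Within classes the 10 genes were not called between genotypes either. The counts were 0 of 10 in the stem-like cells, where 0.0115% of all genes were called, 0 of 10 in the cycling-like cells (0.0338%), 0 of 9 in the enterocyte-like cells (0%) and 0 of 9 in the Anxa1 cluster (0%). At an unadjusted p under 0.05 (edgeR) these fits had 2 of 10 genes in the stem-like cells, where 183 of 8710 genes were higher and 180 lower, and 3 of 10 in the cycling-like cells (156 higher and 209 lower of 8883). They had 0 of 9 in the enterocyte-like cells (83 and 72 of 6331) and 2 of 9 in the Anxa1 cluster (117 and 114 of 7365). The difference between classes in the genotype effect was called for 0 of 10 genes in cycling-like minus stem-like cells (0.0108% of all genes) and for 0 of 10 in enterocyte-like minus stem-like cells (0%). In the cycling-like cells Fos was at 402.9, 351.5 and 276.9 CPM in the mutant cultures and 194.3 and 253.6 CPM in the control cultures. Junb was at 81.49, 94.9 and 93.91 CPM in the mutant cultures and 64.75 and 72.47 CPM in the control cultures there, and Ier2 at 309.6, 364.1 and 370.8 CPM in the mutant cultures and 271.3 and 305.1 CPM in the control cultures. In these 3 genes all mutant cultures were above both control cultures, as was so for 9.93% of all genes in that class (9.32% had all mutant cultures lower). Fos (log2 fold change 0.63), Junb (0.37) and Ier2 (0.26) were not called (adjusted p = 1 each, edgeR), while without the filter on low counts Fos was (0.63, adjusted p = 1.23e-05).

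**Figure D5:**
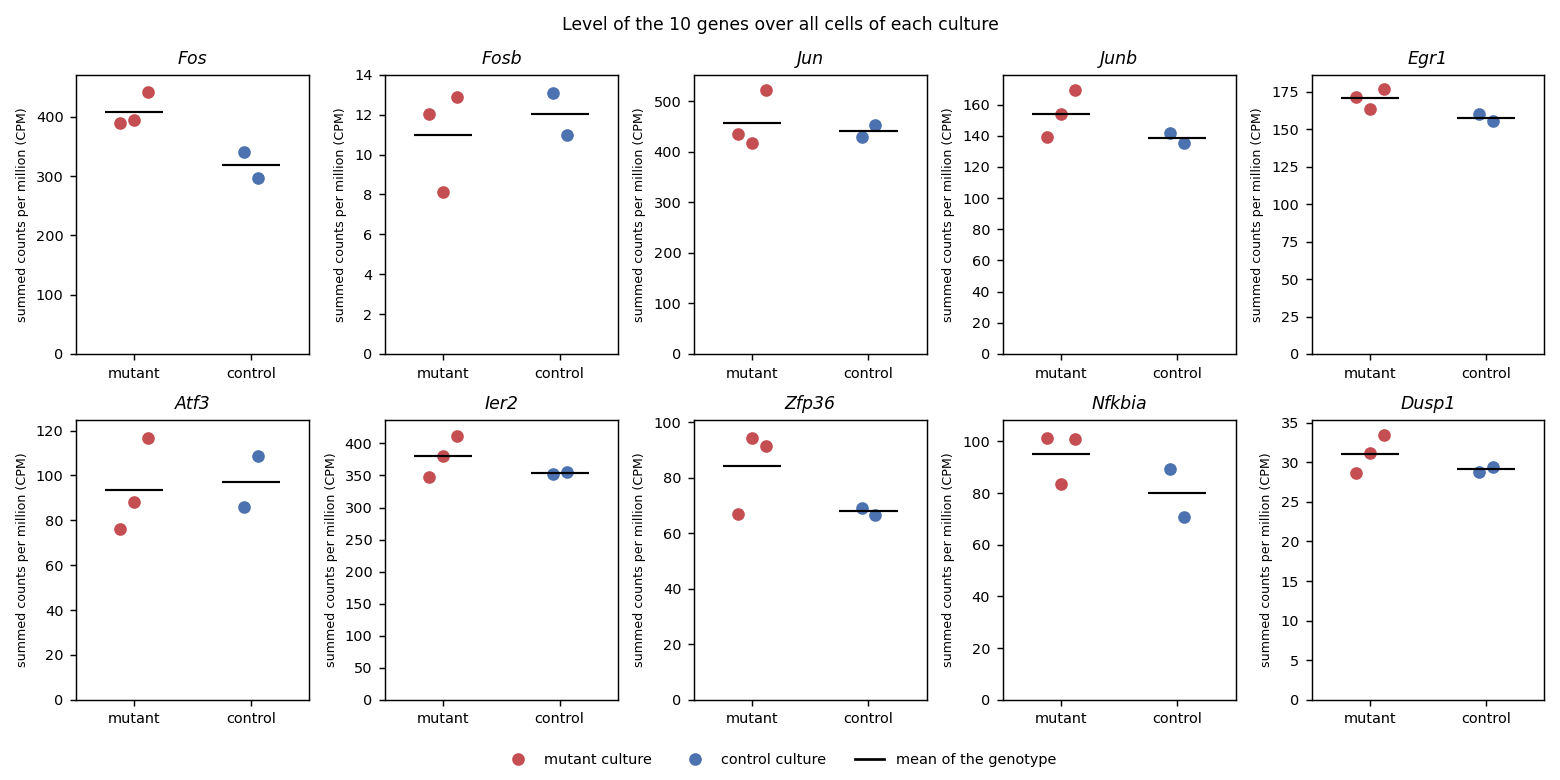
Level (CPM) of each of the 10 genes per culture over all cells, mutant cultures left of control cultures, with the group mean as a line and axes from 0. The groups do not overlap for Fos (390 to 441.7 CPM in mutant and 296.4 to 340.6 CPM in control cultures) and Egr1 (163.6 to 176.7 CPM in mutant and 155.4 to 160.2 CPM in control cultures), and overlap for the other 8 genes.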

How the data were processed

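The deposited data were 1 matrix of whole-number hashtag counts and 1 matrix of RNA expected counts (estimated counts per gene and barcode, not normalized by the authors as far as the values show). Of the RNA values above 0, 95.6% were whole. The submitters' processing notes name mm10, Seurat 4.3.0, Salmon 1.4.0, alevin and Cell Ranger 6.1.0 without saying what each was used for.

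Barcodes were assigned to cultures with HTODemux (Seurat 5.3.0, positive quantile 0.99), and those with more than 1 hashtag were left out as doublets. Doublets within a culture were not called. Cells needed at least 500 detected genes and at most 25% mitochondrial counts. They were clustered in scanpy 1.11.5 (2000 variable genes, 30 components, 15 neighbours, Leiden resolution 0.8) without 120 genes, the 10 genes and the related lists. A class was named when at least 3 of its markers were detected in 25% of its cells at a log2 fold of 0.5 or more. A cluster of low depth with no marker of its best list among its 10 top genes stayed unnamed all the same. This held for the mitochondrial cluster (4 stem and 4 cycling markers past these bounds) and the shallow cluster (6 Paneth and 4 cycling markers). Levels are counts summed per culture and divided by the sum of all genes.

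Sums were rounded and tested with edgeR's quasi-likelihood test (TMM scaling, filterByExpr, Benjamini-Hochberg adjustment over all genes tested), with DESeq2 as an alternative. The fits of genotype over all cells and of the stem-like class were run on simulated data with known changes. Those data held no differences between cultures beyond random spread. The depth, tier and difference terms were not simulated. The class test needed at least 5 cells of a class in each culture and the genotype test within a class 20. For relations between cells, counts were thinned to 2000 UMIs, which left out 78 cells. Counting error alone sets the precision of a low count, and 3 counts is taken as the upper limit of a count of 0. Of per-sample columns, 0 were left unused.

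The members and lists were chosen with earlier results of these data known. Every comparison names all 10 genes, and of each related list up to 3 genes with the smallest p in each direction as examples. The fit of the Anxa1 cluster, the tiers by depth within a class, their terms by class and by genotype and the window of 10000 to 40000 UMIs were added after the data had been seen.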

Additional observations from a re-analysis of the deposited data

Results flagged for a closer look

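Differences between groups in the same contrast were past the threshold for 17 terms. In stem-like cells the depth effect (shallow minus deep tier, log2) differed between mutant and control cultures by -1.52 for Fos and by -0.886 for Jun (edgeR, adjusted over 6472 genes). Within the mutant cultures the shallow tier held more Fos than the deep tier in culture 2 only, and within the control cultures it did in both.

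Between enterocyte-like and stem-like cells the depth effect differed by -2.49 for Dusp1, -1.78 for Atf3, -1.77 for Egr1, -1.53 for Ier2, -1.51 for Zfp36, -1.37 for Junb, -1.23 for Fos and -1.23 for Jun. Between cycling-like and stem-like cells it differed by -1.29 for Atf3, -1.14 for Egr1, -1.09 for Fos, -0.923 for Jun, -0.901 for Zfp36, -0.85 for Junb and -0.674 for Ier2. Nfkbia was in neither list. The tiers of these classes lay at different depths.

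In data outside the comparisons, the 1054 barcodes that passed the cell filter without a hashtag held the 10 genes at a summed level of 1813 CPM, at a median of 5509.5 UMIs per barcode. The 1432 barcodes with 1 hashtag held them at 1787 CPM and the 239 barcodes with several hashtags at 1932 CPM. No untagged barcode can be placed in a culture.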

How the results depend on the processing

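Of the values for single genes, 1018 kept direction and side of the threshold under an alternative, 91 lost the call, 3 gained it and 23 changed sign; 349 counts of calls stayed within 1.5 times and 85 did not. The cause was not tested for any of them, except that fits with a culture left out or a stricter cell filter hold fewer cells. With DESeq2 the genotype comparison over all cells called 9 genes, the stem-like tiers 528, the cycling-like tiers 9, the depth by genotype term 1 gene, which was Fos, and the depth difference of cycling-like minus stem-like cells 206 genes, 2 of them among the 10. Without the filter on low counts, genotype called 2 genes over all cells, 20 in stem-like, 40 (1 of the 10) in cycling-like and 26 in enterocyte-like cells, depth over all cells called 4 of the 10 with Fos at -0.06, the tiers called 176 genes (1 of the 10) in cycling-like, 201 (4 of the 10) in enterocyte-like cells and 144 in the Anxa1 cluster, depth by genotype 15 (4 of the 10) and enterocyte-like minus stem-like depth 109. With MULTIseqDemux, genotype called 2 genes over all cells and 0 in cycling-like cells, Atf3 between genotypes was at 0.06, and Dusp1 by depth at 0.25. With equal cell numbers genotype called 0 genes and Fosb was at 0.01.

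With at most 15% mitochondrial counts, depth over all cells called 2841 genes and 4 of the 10, with Nfkbia at 0.19 and Dusp1 at 0.25, the enterocyte-like tiers 18 genes and 0 of the 10, and enterocyte-like minus stem-like depth 46 genes and 3 of the 10. With cells under 5000 UMIs as the shallow side, 2626 genes and 3 of the 10 were called, with Fos at -0.21 and Ier2 at -0.07. With cells from 30000 UMIs as the deep side, Nfkbia was at 0.05 and Dusp1 at 0.03. Without the unnamed clusters 2800 genes and 5 of the 10 were called by depth and Dusp1 was at 0.00. Among cells of at least 10000 UMIs, the enterocyte-like tiers called 4 genes and 0 of the 10, depth by genotype 4 and 1, and enterocyte-like minus stem-like depth 41 and 3.

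With each culture left out in turn, genotype called 1 to 6 genes over all cells, 1 to 23 in stem-like, 1 to 10 in cycling-like and 0 to 3 in enterocyte-like cells, and 1 to 5 by class for cycling-like minus stem-like cells. The tiers called 7 to 138 genes in cycling-like cells, 44 to 162 (0 to 1 of the 10) in enterocyte-like cells and 2 to 58 in the Anxa1 cluster. Depth by genotype called 8 to 18 genes and 1 to 4 of the 10, enterocyte-like minus stem-like depth 29 to 71 and 4 to 8, and cycling-like minus stem-like depth 249 to 464 and 3 to 7. Between genotypes Fosb ran from -0.30 to 0.03, Jun from -0.06 to 0.11 and Atf3 from -0.25 to 0.09. By depth Fos ran from -0.00 to 0.19, Nfkbia from -0.18 to 0.12 and Dusp1 from -0.25 to 0.09. In the tiers Nfkbia ran from -0.02 to 0.38 in stem-like and from -0.29 to 0.16 in enterocyte-like cells. The class counts of the 10 genes stayed within 1.5 times in every alternative run. No paired analysis was possible because the labels pair no mutant with a control culture: the culture numbers only follow the order of the hashtags in the labels.

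Fosb and Dusp1, with 354 and 938 counts in all, are limited by depth, as are the enteroendocrine-like cells (7 to 22 per culture).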
